A study of Mus musculus with 3 samples.

Results

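The 6 genes described here are the 4 TEAD transcription factors Tead1, Tead2, Tead3 and Tead4 and the 2 Vestigial-like cofactors Vgll3 and Vgll4. They were found by symbol among the 31053 features of 3 droplet single-cell RNA libraries of mouse back skin, and each of the 6 symbols matched 1 feature. The young control and the knockout were 2.5 months old, both carried homozygous floxed alleles of Yap1 and Wwtr1, and both received 0.11 mg tamoxifen per g body weight by gavage on 2 days a week for 4 weeks. In addition, the knockout had R26-CAG-CreER, a recombinase that tamoxifen switches on and that the ubiquitous CAG promoter drives from the Rosa26 locus. The old control was wild-type, 24 months old and untreated, so age, the floxed alleles and tamoxifen differ together between the old and the young control. There is 1 library per group, so no test between groups was possible, and every interval given is a 95% interval of counting error alone. The unit throughout is CPM, the unique molecular identifiers (UMIs) of a gene per 1000000 UMIs summed over the cells of a class. The assay counts each transcript once, near its 3' end, so levels were not divided by length, but genes differ in how well they are captured.

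TEAD proteins bind DNA and do little on their own: what they do at a gene depends on the cofactor they carry. When the Hippo kinase cascade is inactive, YAP (gene Yap1) and TAZ (gene Wwtr1) enter the nucleus and bind TEADs to activate genes of growth, matrix and adhesion. VGLL proteins use the same surface of TEAD. VGLL4 competes with YAP and TAZ and is known as a repressor of their output, whereas VGLL3 is known as an activator of TEAD and has been linked in skin to inflammatory gene expression. In skin, YAP and TAZ are studied in basal keratinocytes, hair follicles, wound repair and dermal fibroblasts.

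TEADs recognise the short sequence GGAATG, and its longer form GGAATGT, on either strand. RefSeq promoter windows of 300 bases on GRCm38.p6, from 250 bases before to 50 after a start site, were at hand for Tead2, Tead3, Vgll3, Vgll4, Yap1 and Wwtr1. GGAATG or its complement CATTCC lay in at least 1 window of 5 of those 6 genes, all but Tead2, compared with 16.58% of the 27025 genes in the table and 14.66% of its 32851 windows. The longer form lay in windows of Yap1, Vgll3 and Tead3, against 3.848% of all windows. The AP-1 motif TGANTCA, bound by the FOS and JUN proteins that often sit beside TEAD, was in none of these windows, against 7.808% of all. Such a match describes letters only and shows no binding. The 250 bases before the start site are shown for the 3 members that both hold the motif and moved in a comparison described further on, each 5' to 3' on the strand of the gene, with GGAATG or CATTCC in capitals. The windows are chr16:65814939-65815188 on the plus strand for Vgll3, chr6:114969204-114969453 on the minus strand for Vgll4, and, for the outermost of 3 start sites of Tead3, chr17:28350806-28351055 on the minus strand.
Vgll3: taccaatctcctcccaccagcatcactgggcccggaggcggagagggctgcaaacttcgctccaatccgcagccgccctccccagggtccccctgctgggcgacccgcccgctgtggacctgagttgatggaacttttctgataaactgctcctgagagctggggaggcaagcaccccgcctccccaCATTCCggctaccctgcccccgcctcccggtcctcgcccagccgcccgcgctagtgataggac
Vgll4: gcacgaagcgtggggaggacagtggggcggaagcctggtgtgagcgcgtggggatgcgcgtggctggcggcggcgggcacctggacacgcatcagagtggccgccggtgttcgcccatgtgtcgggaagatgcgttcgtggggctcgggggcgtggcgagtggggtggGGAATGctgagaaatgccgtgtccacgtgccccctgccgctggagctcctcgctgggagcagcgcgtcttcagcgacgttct
Tead3: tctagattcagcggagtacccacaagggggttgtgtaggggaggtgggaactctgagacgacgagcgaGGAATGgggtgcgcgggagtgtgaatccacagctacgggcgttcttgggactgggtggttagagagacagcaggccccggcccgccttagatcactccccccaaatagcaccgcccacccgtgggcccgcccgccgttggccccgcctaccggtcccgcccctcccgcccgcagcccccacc
The match began 63 bases before the start site in Vgll3, 82 in Vgll4 and 182 in Tead3.

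In the annotation of the files' build (GENCODE M21, GRCm38) the 6 genes lie on 4 chromosomes and none overlaps another member. Tead1 (ENSMUSG00000055320) spans 112679318 to 112906807 on chromosome 7, where a long noncoding gene and a miRNA gene overlap it, and Tead2 (ENSMUSG00000030796) spans 45215753 to 45233644 on the same chromosome. Tead2 overlaps the leukocyte gene Cd37 on the opposite strand, and whether the counting used strand was not given in the sources used here. Tead3 (ENSMUSG00000002249) spans 28331671 to 28350817 on chromosome 17. Tead4 (ENSMUSG00000030353) spans 128224288 to 128300823 on chromosome 6, and Vgll4 (ENSMUSG00000030315) spans 114860628 to 114969994 on that chromosome. Vgll3 (ENSMUSG00000091243) spans 65815257 to 65866368 on chromosome 16.

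The libraries held 52579262 to 95274423 UMIs over 15290 to 25348 barcodes, and 10785 young control, 8656 knockout and 11109 old control cells passed the filters. The knockout library stood apart: its barcodes had a median of 18.6% mitochondrial UMIs, against 5.58% and 9.41% in the young and old control. Pairs of libraries shared 127 to 198 barcodes, under 1% of any library. Cells were clustered together and the clusters named from fixed markers; a class is called "-like" for that reason. Named clusters held 86.3% of the young control cells, 57.7% of the old control cells and 26.2% of the knockout cells, and the results of the knockout rest on that named share. UMIs of Xist, which is expressed from the inactive X chromosome, numbered 166112, 14 and 76236 in the young control, knockout and old control, and those of the Y-linked Ddx3y numbered 0, 5647 and 1, so the sex of the animals and the knockout cannot be told apart. The deleted genes were lower in the knockout library. Over all cells of the young control, knockout and old control, Wwtr1 stood at 126, 11.7 and 113 CPM and Yap1 at 77.9, 40.5 and 62.8 CPM. Whether the counted 3' ends lie inside the deleted parts was not given in the sources used here, so a remaining UMI does not show a remaining protein.

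Tead1 was the most abundant TEAD transcript of the skin and had its highest level in Schwann-like cells, the glia of skin nerves. Over all cells of the young control, knockout and old control it gave 77.6, 108 and 52.3 CPM, against 12, 12.6 and 9.71 for Tead2, 18.0, 27.8 and 21.8 for Tead3, and 3.18, 7.05 and 2.69 for Tead4. In the young control, Tead1 stood at 245 CPM (224 to 268) in Schwann-like cells. Lymphatic endothelial-like cells followed at 132 CPM, pericyte or smooth muscle-like cells at 131 and fibroblast-like cells at 113. The intervals of the lymphatic and the pericyte or smooth muscle-like class overlapped, whereas the Schwann-like interval lay above all other classes. Dermal papilla or sheath-like and melanocyte-like cells both had 90.6 CPM, vascular endothelial-like cells 78.8, keratinocyte-like cells 58.1 and sebocyte-like cells 52.2. The Schwann-like class also led in the other two libraries, with 299 CPM (277 to 322) for the knockout and 126 CPM (106 to 149) for the old control, where the fibroblast-like class came next at 90.1 (77.9 to 104).

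Blood-derived cells stood at the bottom of the Tead1 order. In the class of T, NK and innate lymphoid-like cells Tead1 gave 13.8, 5.89 and 10.8 CPM for the young control, knockout and old control. The first of these was no higher than the 15.1 CPM that free RNA was estimated to add to that class, so it is read as background. The same holds cell by cell. With each cell thinned to 1500 UMIs, 30.5% of 518 Schwann-like cells of the young control had a Tead1 UMI, compared with 1.45% of 1100 lymphoid-like cells. Unthinned, the shares were 45.6% and 3.62%, at median depths of 2507 and 2888 UMIs per cell, and thinning left out 123 and 87 shallower cells. Macrophage or monocyte-like cells had 17.2 CPM of Tead1 (8.89 to 30.1) and mast or basophil-like cells 7.39 (1.52 to 21.6).

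**Figure D1:**
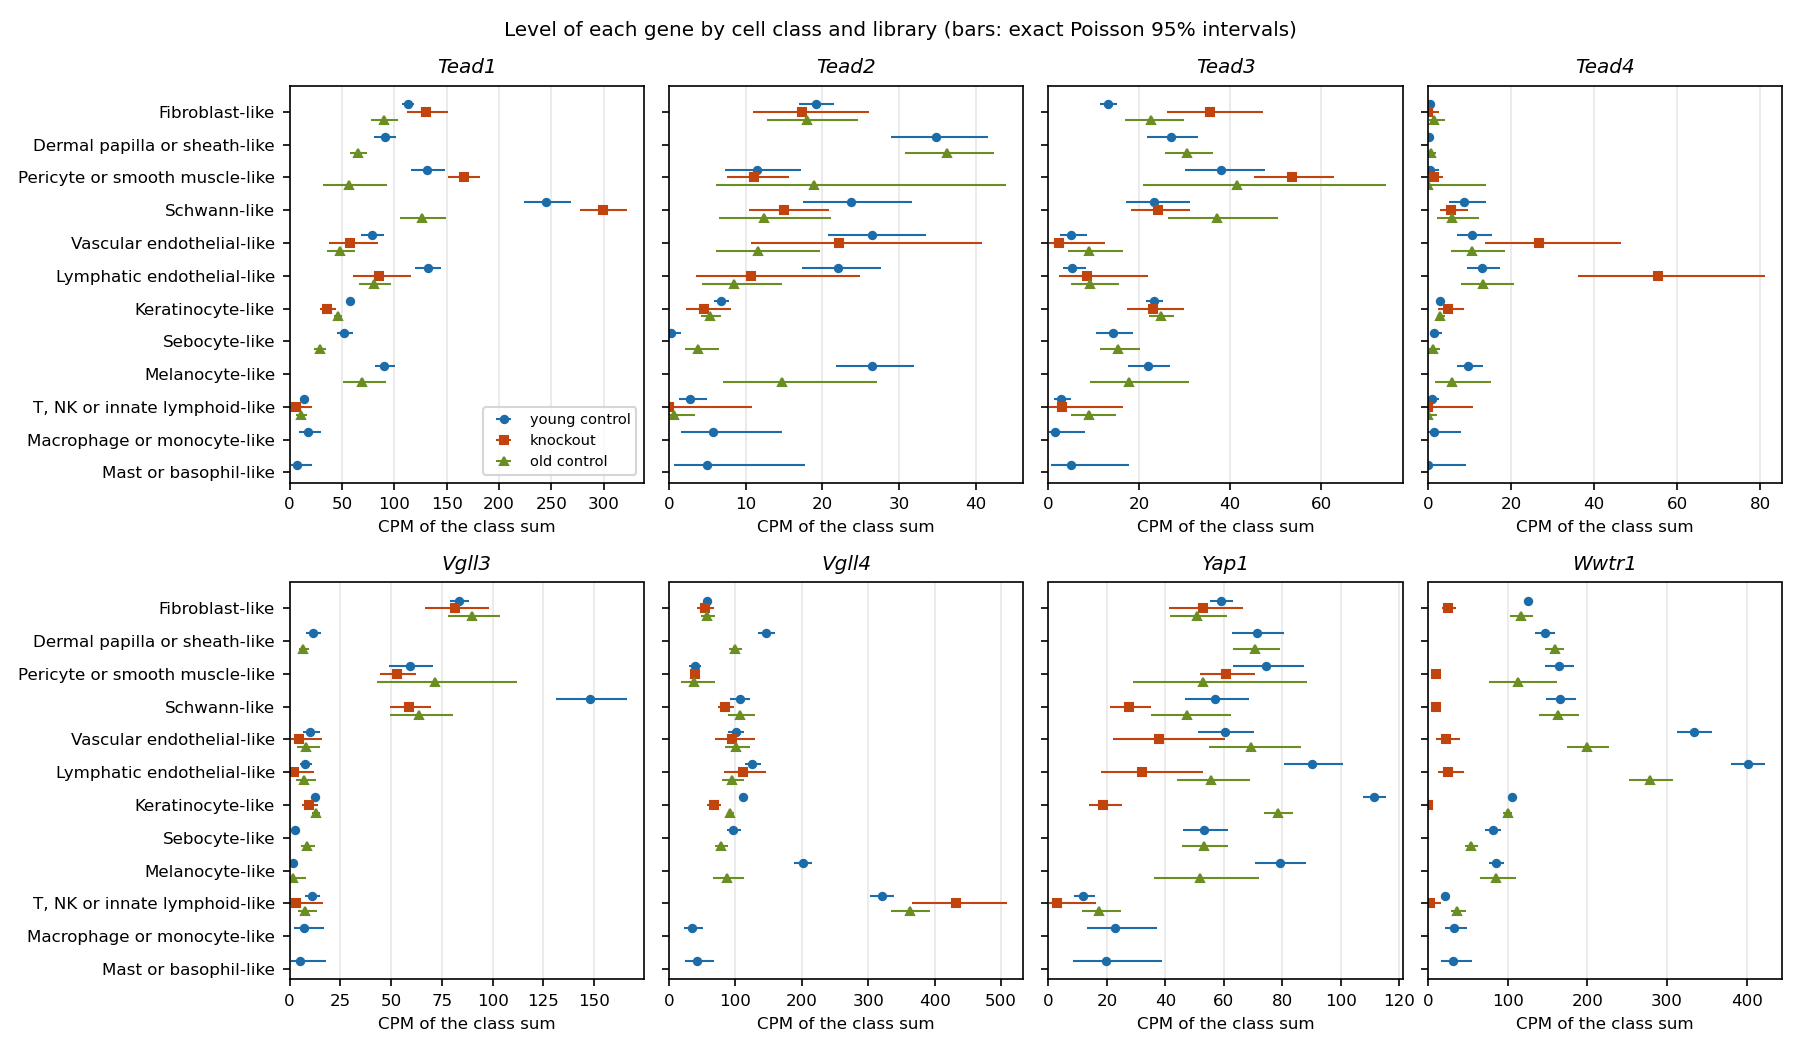
Level of the 6 genes and of Yap1 and Wwtr1 in each cell class and library, in CPM of the class sum on a linear axis from 0 that differs between panels, with exact Poisson 95% intervals as bars. Classes with under 50 cells in a library are not drawn. Tead1 is highest in Schwann-like cells in each library, Vgll4 in the lymphoid-like class, and Tead4 in lymphatic and vascular endothelial-like cells.

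The 3 minor TEADs were spread differently over the classes. Tead2 was highest in dermal papilla or sheath-like cells, the mesenchyme that instructs the hair follicle, with 34.8 CPM (28.9 to 41.6) for the young and 36.3 (30.8 to 42.4) for the old control. Vascular endothelial-like and melanocyte-like cells followed at 26.5 CPM each, with intervals that overlapped that of the dermal papilla or sheath-like class. It was nearly absent from sebocyte-like cells of the young control, with 0.284 CPM from 1 UMI. Tead3 came first in pericyte or smooth muscle-like cells of all 3 libraries, with 38.1, 53.5 and 41.5 CPM for the young control, knockout and old control. Its interval overlapped that of the next class in each library, dermal papilla or sheath-like cells at 26.9 CPM in the young control, fibroblast-like cells at 35.4 in the knockout and Schwann-like cells at 37.0 in the old one. It was low in both endothelial classes of the young control, at 4.93 CPM in the vascular and 5.23 in the lymphatic one.

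Tead4 had another order. In the young control it stood at 13.1 CPM in lymphatic endothelial-like, 10.6 in vascular endothelial-like, 9.71 in melanocyte-like and 8.80 in Schwann-like cells, 4 classes with overlapping intervals. Keratinocyte-like cells had 2.81 CPM, and fibroblast-like cells had 0.468 CPM from 7 UMIs, so that Tead4 was close to the 1 UMI level in the dermal mesenchyme at this depth. Within the Schwann-like class of the young control all 17 Tead4 UMIs lay in cluster 21, whose leading genes included Mal, Ncmap and Prx, genes of myelin and the myelinating cell. Cluster 4, whose leading genes included Kcna1, Gatm and Scn7a, had 0. The other libraries did not show this split: the knockout had 9 Tead4 UMIs in cluster 4 (5.63 CPM) and 4 in cluster 21 (5.46 CPM), and the old control 4 (4.67 CPM) and 2 (10.1 CPM).

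Summed over the 4 factors, the TEAD pool was 301 CPM (277 to 327) in Schwann-like cells of the young control, 181 in pericyte or smooth muscle-like, 172 in lymphatic endothelial-like, 153 in dermal papilla or sheath-like, 149 in melanocyte-like and 146 in fibroblast-like cells. Keratinocyte-like cells had 91.0 CPM and sebocyte-like cells 68.1. The lymphoid-like class had 20.3 CPM (15.9 to 25.4), macrophage or monocyte-like cells 25.8 and mast or basophil-like cells 17.2. Tead1 gave the largest part of the pool in the 9 classes of the young control other than blood-derived cells, from 59.4% in dermal papilla or sheath-like to 81.4% in Schwann-like cells. The second factor changed with the class. It was Tead3 in keratinocyte-like (25.6% of TEAD UMIs), pericyte or smooth muscle-like (21%) and sebocyte-like cells (20.8%). It was Tead2 in dermal papilla or sheath-like (22.8%), vascular endothelial-like (21.9%), fibroblast-like (13.1%) and lymphatic endothelial-like cells (12.8%).

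**Figure D2:**
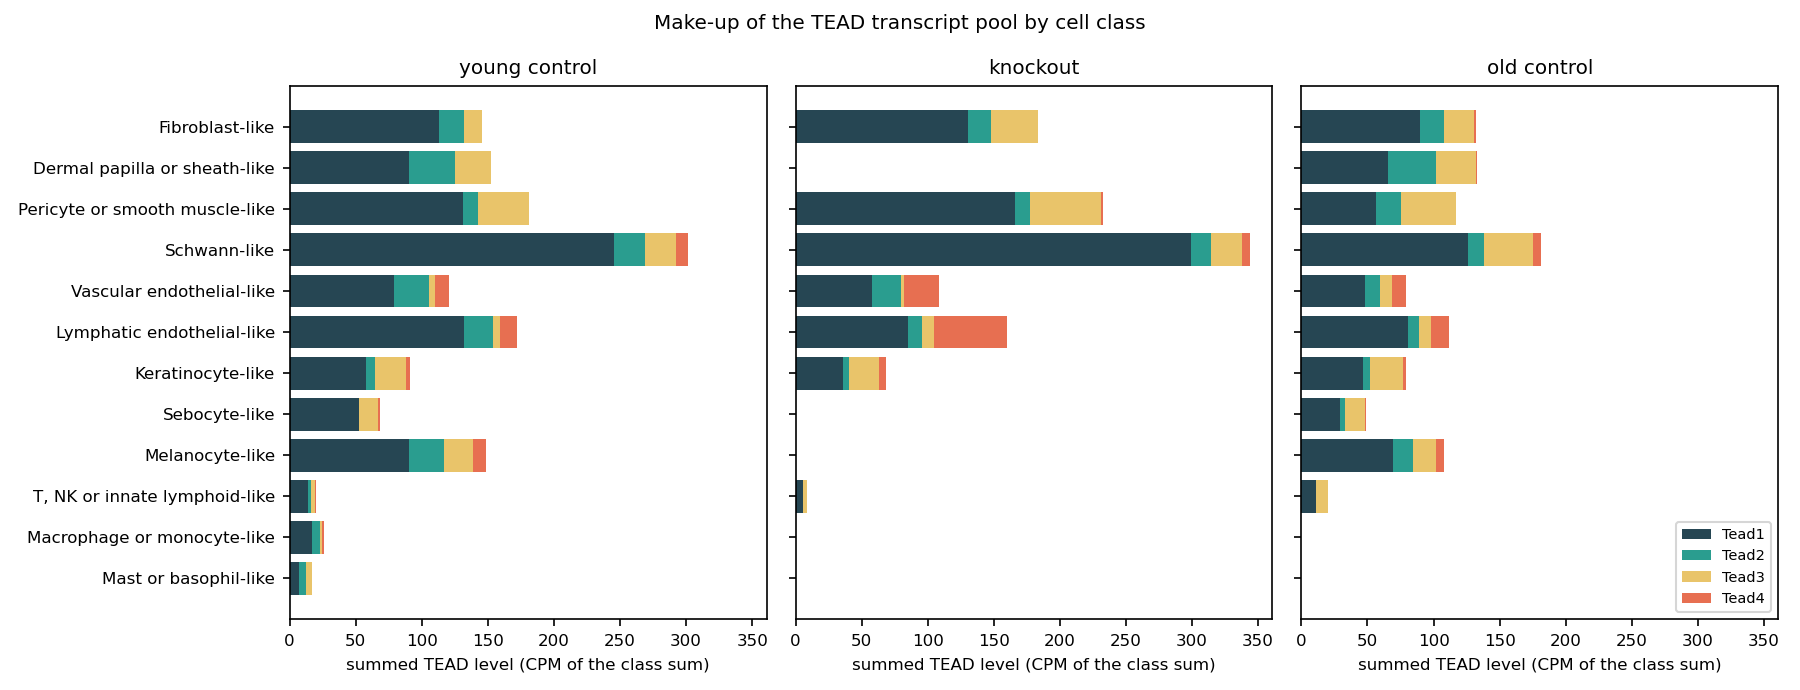
TEAD transcripts per class and library, in CPM of the class sum, stacked by factor. Blank rows are classes with under 50 cells. Tead1 is the longest segment wherever the pool exceeds 30 CPM, and the Tead4 segment is widest in lymphatic endothelial-like cells of the knockout, where it makes up 34.7% of TEAD UMIs.

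Keratinocytes were not uniform. Cluster 6 was led by Lhx2, Krt6a, Sox9 and Krt17, genes of the hair follicle, and by Ctgf, a target of YAP and TAZ. It held 557 young control cells with 96.8 CPM of Tead1 (89.4 to 105). Cluster 8, led by basal genes such as Krt15, Col17a1 and Krt5, had 53.1 CPM (48.4 to 58.2), and cluster 9, led by the differentiation genes Krt10, Krtdap and Krt1, had 29.2 CPM (25.9 to 32.9). The 3 intervals did not overlap. These clusters are not the whole class. Keratinocyte-like cluster 23, led by Sprr1a, Cst6 and Krt79, held 103 young control cells with 66.0 CPM of Tead1, no lower than cluster 8. Tead2 was split more sharply still, with 25.1 CPM from 165 UMIs in cluster 6, 1.13 CPM from 10 UMIs in cluster 8 and 0.848 CPM from 8 UMIs in cluster 9. Tead3 stayed between 20.1 and 25.6 CPM in clusters 6, 8 and 9 and had 29.5 CPM in cluster 23. Yap1 was highest in cluster 8, at 142 CPM, followed by 106 CPM in cluster 6, 96.9 in cluster 9 and 70.7 in cluster 23. These are descriptions, since the clusters were drawn from the same cells.

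Of the cofactors, Vgll4 was highest in a class with few TEAD transcripts. The lymphoid-like class had 320 CPM (302 to 339) for the young control, 433 (366 to 509) for the knockout and 362 (334 to 392) for the old control, which put it first in each library and clear of the next class. Thinned to 1500 UMIs, 34.6%, 49.4% and 37.3% of these cells had a Vgll4 UMI; unthinned, 49.5%, 72.7% and 54.1%. The estimate of free RNA for the young control was 21.1 CPM, far below the measured level. Within the class, in the young control, cluster 20, led by Cd3g, Trdc and Cd3e and so by a constant chain of the gamma-delta T cell receptor, had 783 CPM (713 to 859), and cluster 7, led by Ccl5, Icos and Cd28, had 234 CPM (218 to 252). In the old control the 2 clusters had 500 CPM (455 to 548) and 196 CPM (166 to 230), both below the young control although the class level was higher; cluster 20 held 177 of 1187 young and 298 of 471 old cells of the class. Tead1 gave 4 UMIs in cluster 20 and 47 in cluster 7, in both at the level read as background. Macrophage or monocyte-like cells, in contrast, had 34.4 CPM of Vgll4 (22.0 to 51.2), the lowest of the 12 classes, with an interval that overlapped those of pericyte or smooth muscle-like and mast or basophil-like cells.

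Outside the immune classes, melanocyte-like cells of the young control had 202 CPM of Vgll4 (188 to 216) and dermal papilla or sheath-like cells 147 (134 to 160). Lymphatic endothelial-like, keratinocyte-like, Schwann-like, vascular endothelial-like and sebocyte-like cells followed, from 125 down to 96.8 CPM. Fibroblast-like cells had 57.0 CPM and pericyte or smooth muscle-like cells 38.6. The melanocyte-like sum of 4119018 UMIs came from 259 cells with a median of 3574, so the deeper cells gave most of it. Thinned to equal depth, 18.3% of melanocyte-like cells had a Vgll4 UMI (13.6 to 23.8%). Dermal papilla or sheath-like, sebocyte-like and keratinocyte-like cells had 17.2%, 16.6% and 14.9%, with overlapping intervals, so the lead was not seen there. Keratinocyte markers exceeded melanocyte markers in the melanocyte-like class, as given further on. Set against the TEAD pool of the young control, Vgll4 transcripts were fewer than TEAD transcripts in fibroblast-like and Schwann-like cells. They were more numerous in melanocyte-like, sebocyte-like and keratinocyte-like cells. Among thinned melanocyte-like cells, however, 20.8% had a UMI of any TEAD (15.9 to 26.5%) and 18.3% one of Vgll4. The order in that class therefore rests on its sum. In keratinocyte-like cells Vgll4 gave 111 CPM and the 4 TEADs 91.0. This did not hold in keratinocyte cluster 6, where Vgll4 gave 143 CPM. Tead1 to Tead4 gave 96.8, 25.1, 23.3 and 6.54 CPM there, together more than Vgll4.

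Vgll3 had a narrower distribution. Schwann-like cells of the young control had 148 CPM (131 to 166), fibroblast-like cells 83.4 (78.8 to 88.1) and pericyte or smooth muscle-like cells 59.1 (48.9 to 70.8), 3 levels with separate intervals. All other classes were at or below 12.4 CPM, the level of keratinocyte-like cells, and melanocyte-like cells had 1.70 CPM. Within the keratinocyte-like class of the young control, cluster 23 had 35.3 CPM from 61 UMIs. Fibroblast-like cells came first in both other libraries, with 81.5 CPM for the knockout (66.8 to 98.3) and 90.1 for the old control (77.9 to 104). Neither was clear of the next class, which was Schwann-like in the knockout (49.4 to 69.5) and pericyte or smooth muscle-like in the old control (43.1 to 112). The 2 remaining genes of the family were hardly seen: Vgll1 gave 0 UMIs in all 3 libraries, which for the 10785 young control cells allows up to 0.0370 CPM over all cells, and Vgll2 gave 9, 1 and 0 UMIs in the young control, knockout and old control.

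Yap1 and Wwtr1 were themselves placed differently. Wwtr1 was highest in lymphatic endothelial-like cells of the young control, at 401 CPM, followed by vascular endothelial-like cells at 334 and Schwann-like cells at 166. Yap1 was highest in keratinocyte-like cells, at 111 CPM, and had a flatter order. Across the 12 classes of the young control, Tead1 ranked with Wwtr1 at a Spearman rho of 0.85 and with Yap1 at 0.58, and Tead2 at 0.72 and 0.55. Tead3 ranked with Yap1 at 0.61 and with Wwtr1 at 0.38. For Tead4 the values were 0.45 with Yap1 and 0.50 with Wwtr1. With Yap1 and Wwtr1 in turn, Vgll4 had 0.27 and 0.05, and Vgll3 0.15 and 0.43. In the 10 classes of the old control, Tead1 kept 0.64 with Wwtr1 but had -0.21 with Yap1, and Tead3 had 0.01 with Yap1. In the 7 classes of the knockout, Tead1 had 0.61 with Yap1 and 0.36 with Wwtr1, Vgll4 had -0.68 with Yap1, and Wwtr1 itself was at 25.6 CPM or less. These points share a library, its depth and its free RNA, 3 of the 12 are blood-derived classes with little of any of these genes, and the values are descriptions.

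Among all genes with at least 20 CPM on average over the 25 class sums of at least 100 cells, the 3 whose log2(CPM + 1) followed a member most closely were as follows. For Tead1 they were Mpdz, a scaffold of cell junctions (Pearson r 0.93), Kifap3 (0.88) and Tom1l2 (0.88). For Tead2 they were Trove2 (0.91), the actin bundler Fscn1 (0.88) and Tcaf1 (0.87). For Tead3 they were the Wnt receptor Ryk (0.90), the cadherin Fat1 (0.89) and Cspg4 (0.88), the last of them a marker used to name pericytes. For Tead4 they were Rapgef5 (0.81), the caveolar gene Cav2 (0.79) and Crip2 (0.79). For Vgll3 they included the matrix proteoglycan Ogn (0.92) and Olfml2b (0.88). For Vgll4 they were Supt20 (0.81), Sept1 (0.81) and Sf3b3 (0.79). Class sums of 1 class from several libraries are among the 25 points.

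The knockout was compared with the young control in 8 sets of cells with at least 50 cells in both libraries: 6 classes and 2 clusters of the pericyte or smooth muscle-like class, taken singly because different clusters held most of that class in the 2 libraries. A gene was called different under a size rule: a mean of 20 CPM or more over the 3 libraries, a ratio of 2 or more or of 0.5 or less, and an interval that cleared 1.5-fold in that direction. Of the 48 pairs of member and cell set, 27 passed the level filter, 2 were called higher and 1 lower. The 2 higher pairs were Tead3 in fibroblast-like and Tead4 in lymphatic endothelial-like cells, and the lower pair was Vgll3 in Schwann-like cells. Over all genes tested, 9.02% were called in either direction in fibroblast-like cells, 8.28% in Schwann-like, 8.02% in keratinocyte-like, 4.53% in vascular and 4.79% in lymphatic endothelial-like, 6.35% in lymphoid-like cells, 7.46% in cluster 14 and 5.25% in cluster 24. With 3 of 27 tested pairs called, the count does not set the members apart from other genes. The median log2 ratio over the 6 members was -0.04 in fibroblast-like, -0.49 in Schwann-like and -0.45 in keratinocyte-like cells, beside 0.17, -0.08 and -0.12 over all genes tested.

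Tead4 in lymphatic endothelial-like cells had the largest ratio. The young control had 13.1 CPM (45 UMIs in 534 cells), the knockout 55.4 (26 UMIs in 53 cells) and the old control 13.3 (19 UMIs in 497 cells). The knockout interval, 36.2 to 81.2 CPM, lay above both control intervals, and the ratio of knockout to young control was 4.24 (2.51 to 7.02). With both controls under 20 CPM, Tead4 passed the level filter through its knockout level alone, so that a gene passing in this way had to differ. Of all genes tested in this class, 1.38% were called higher. Unthinned, 26.4% of the knockout cells and 7.30% of the young control cells had a Tead4 UMI, at median depths of 3586 and 3473 UMIs, compared with 0% and 0.337% of lymphoid-like cells. Thinned to 1500 UMIs, 4.35% of 46 and 2.07% of 483 cells had one, too near the level of 1 UMI to read a change from. In vascular endothelial-like cells Tead4 stood at 10.6, 26.7 and 10.7 CPM in the young control, knockout and old control, a ratio of 2.51 (1.16 to 5.10) from 12 knockout UMIs, and its mean level was below the filter. Vascular markers summed to 2651 CPM in the lymphatic class of the young control and 2708 in that of the knockout, and lymphatic markers, all 7 detected, to 21711 and 29460. Wwtr1 in the same cells fell from 401 to 25.6 CPM (ratio 0.064) and Yap1 from 90.3 to 32.0 (0.354).

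The other members of the lymphatic class moved less. Tead1 had 132, 85.2 and 80.7 CPM in the young control, knockout and old control, a knockout ratio of 0.647 (0.456 to 0.895) that the size rule did not call. Tead2 had a ratio of 0.483 from 5 knockout UMIs, and Vgll4 one of 0.884 (0.649 to 1.18). Tead4 therefore made up 34.7% (24.0 to 46.5%) of TEAD UMIs in this class of the knockout, compared with 7.59% in the young and 11.9% in the old control.

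For Vgll3 in Schwann-like cells the young control had 148 CPM (286 UMIs in 641 cells), the knockout 58.8 (137 UMIs in 703 cells) and the old control 63.5 (67 UMIs in 523 cells). The young control lay above the other two libraries, whose intervals overlapped. The ratio of knockout to young control was 0.397 (0.322 to 0.489), in a class where 5.7% of genes were called lower. Thinned to 1500 UMIs, 18.1%, 8.72% and 9.66% of these cells had a Vgll3 UMI, compared with 1.64%, 0% and 1.33% of lymphoid-like cells. The unthinned shares were 30.7%, 15.9% and 11.7%, at median depths of 2507, 2262 and 1589 UMIs. The markers of the class moved with it. The 9 Schwann markers, all detected in each library, summed to 46530, 21394 and 17129 CPM. The free RNA estimate, the level of other classes' markers relative to the whole library, was 21.5%, 33.6% and 49.9% in these cells. Keratinocyte markers in them summed to 2826, 575 and 7387 CPM. The part of these shifts in the Vgll3 difference was not tested beyond the alternatives described in the closing section.

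The difference was larger in cluster 4, where Vgll3 stood at 194, 55.7 and 61.9 CPM in the young control, knockout and old control, a knockout ratio of 0.287 (0.220 to 0.371). In cluster 21, the cluster led by myelin genes, it stood at 105, 65.5 and 70.5 CPM, a ratio of 0.622 (0.433 to 0.883). Tead2 in cluster 4 fell from 43.2 to 16.3 CPM, a ratio of 0.377 (0.221 to 0.633). The lower of these levels lay under the 20 CPM of the level filter, so passing it leaned on the high young control level. The filter therefore favoured a lower call for Tead2 there. In cluster 4, 7.74% of all genes were called lower. Vgll4 there had a ratio of 0.605 (0.463 to 0.792), and 1.18 (0.865 to 1.61) in cluster 21. The single clusters were examined after the class results were seen, and whether the 2 clusters differ was not tested.

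Tead1 in Schwann-like cells did not fall in the knockout. It stood at 245 CPM in the young control and 299 in the knockout, a ratio of 1.22 (1.08 to 1.37), and in cluster 21 at 260 and 382 CPM, a ratio of 1.47 (1.24 to 1.74). Neither reached the size rule. Tead3 had a ratio of 1.03 (0.685 to 1.56). In the same cells Wwtr1 fell from 166 to 10.3 CPM and Yap1 from 56.9 to 27.5 CPM. The TEAD pool was 344 CPM in the knockout.

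**Figure D3:**
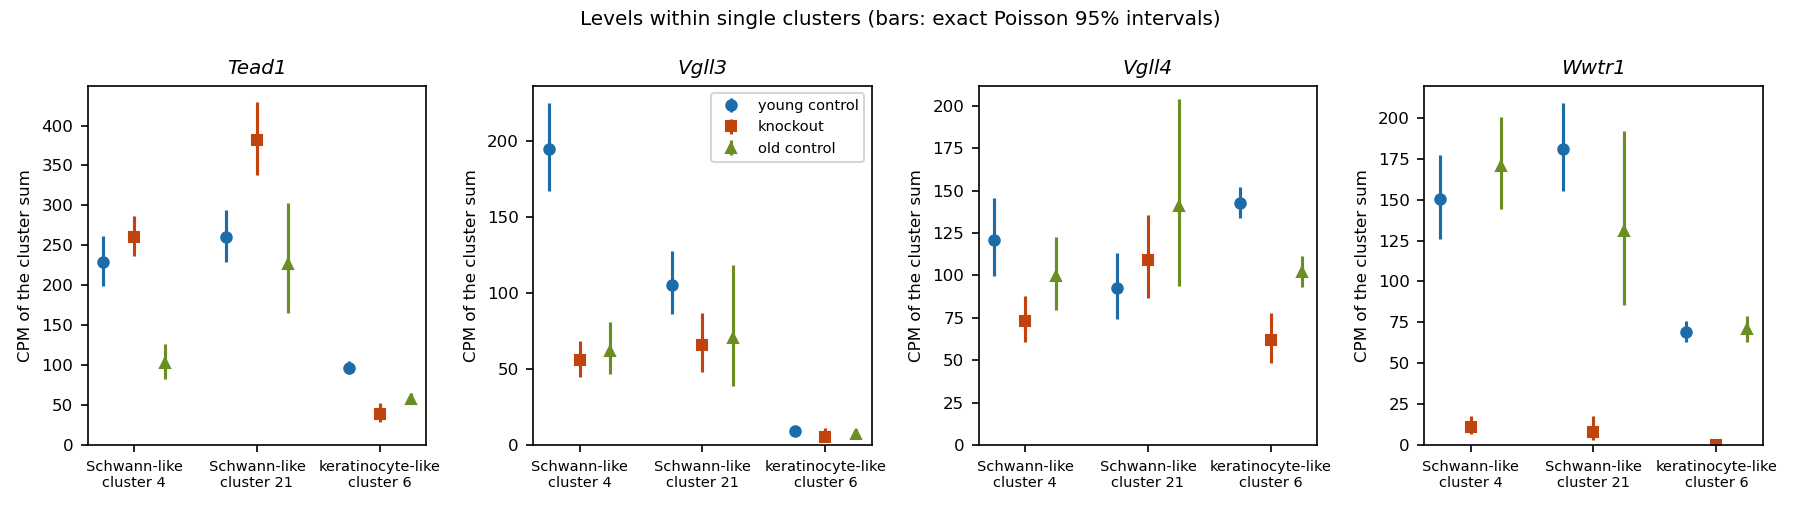
Tead1, Vgll3, Vgll4 and Wwtr1 in the Schwann-like clusters 4 and 21 and in the keratinocyte-like cluster 6, in CPM of the cluster sum from 0, with exact Poisson 95% intervals. Vgll3 in cluster 4 of the young control, at 194 CPM, lies above the knockout and the old control, and Wwtr1 of the knockout is at 0 to 11.3 CPM in the 3 clusters.

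For Tead3 in fibroblast-like cells the young control had 13.1 CPM (196 UMIs in 2560 cells), the knockout 35.4 (47 UMIs in 195 cells) and the old control 22.6 (49 UMIs in 388 cells). The ratio of knockout to young control was 2.71 (1.92 to 3.74), where 5.04% of genes were called higher. The mean over the libraries, 23.7 CPM, passed the level filter of 20 CPM only with the high knockout level in it. The filter therefore favoured a higher call for Tead3. The call depended on which clusters made up the class. Cluster 1, led by Col1a1, Col1a2 and Dcn, held 1531 of the young control cells and 80 of the knockout cells, and its Tead3 levels were 11.4 and 11.2 CPM, a ratio of 0.978 (0.351 to 2.20). Cluster 28, led by Coch, Fmod and Tnmd, held 202 and 62 cells with 36.0 and 58.7 CPM, a ratio of 1.63 (0.934 to 2.78). With the clusters weighted as in the young control the class ratio was 1.71 and was not called. Beside it, the dermal papilla or sheath markers summed to 94.7 CPM in fibroblast-like cells of the young control and 658 in those of the knockout, and the fibroblast markers, all 9 detected, to 87648 and 42411.

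The other members were close to level in fibroblast-like cells. Tead1 had 113 and 130 CPM (ratio 1.15, 0.982 to 1.35), Tead2 19.1 and 17.3 (0.907, 0.566 to 1.39), Vgll3 83.4 and 81.5 (0.977, 0.795 to 1.19) and Vgll4 57.0 and 54.3 (0.953, 0.739 to 1.21). Differences within these intervals were not detectable at this depth. Wwtr1 fell from 126 to 24.9 CPM in the same cells, a ratio of 0.197 (0.136 to 0.278), while Yap1 had 59.0 and 52.8 CPM, a ratio of 0.895 (0.692 to 1.14).

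In keratinocyte-like cells the class as a whole gave no call: Tead1 had 58.1 CPM in the young control and 36.0 in the knockout (ratio 0.620, 0.495 to 0.769), and Vgll4 111 and 67.1 (0.604, 0.513 to 0.707). Most knockout cells of the class, 98 of 137, belonged to the follicle cluster 6, which held 557 of 2384 cells of the young control. Within cluster 6, Tead1 gave 96.8, 39.1 and 57.7 CPM for the young control, knockout and old control, a knockout ratio of 0.404 (0.291 to 0.546). Vgll4 was 143, 61.6 and 102 CPM, a ratio of 0.431 (0.334 to 0.549). Both were called lower, in a cluster where 7.05% of genes were. Tead2 had 25.1 and 8.68 CPM (0.346, 0.163 to 0.652) and did not pass the level filter. Tead3 stood at 23.3 and 26.0 CPM (1.12, 0.730 to 1.66). Wwtr1 gave 0 UMIs in the 137 knockout cells, at least 85.7-fold lower than the 105 CPM of the young control when set against 3 UMIs over the class, and Yap1 had 18.8 CPM against 111.

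In clusters 14 and 24 of the pericyte or smooth muscle-like class no member was called. In cluster 14 the 848 knockout cells had a median of 2183.5 UMIs and the 61 young control cells one of 10012. The free RNA estimates there were 37.6% and 7.79%, so ratios near 1 in this cluster do not show that nothing changed. Cluster 14, led by Myh11, Actg2 and Acta2, had 203 CPM of Tead1 in the young control and 184 in the knockout (0.910, 0.745 to 1.12), 44.7 and 56.1 of Tead3 (1.26, 0.830 to 1.96) and 81.4 and 55.3 of Vgll3 (0.679, 0.487 to 0.958). Cluster 24, led by Rgs5, a pericyte gene, had 98.5 and 71.3 CPM of Tead1 (0.724, 0.477 to 1.07). In lymphoid-like cells Vgll4 had a ratio of 1.35 (1.13 to 1.61). The mix of clusters differed here too. Cluster 20, which had the higher Vgll4 level in the young control, held 37 of 77 knockout and 177 of 1187 young control cells of the class. Clusters 7 and 20 had too few knockout cells for ratios of their own, so a change within them was not tested.

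Most knockout cells, 73.8%, lay in clusters that the markers did not name, compared with 13.7% and 42.3% of the young and old control. The sum of these knockout cells had 89.1 CPM of Tead1 (84.8 to 93.6), 26.1 of Tead3, 13.4 of Tead2 and 7.31 of Tead4, a TEAD pool of 136 CPM. Vgll4 gave 73.7 CPM in them and Vgll3 18.7. All 6 members were therefore detected in the unnamed cells, and Wwtr1 was at 12.8 CPM there and Yap1 at 43.0.

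**Figure D4:**
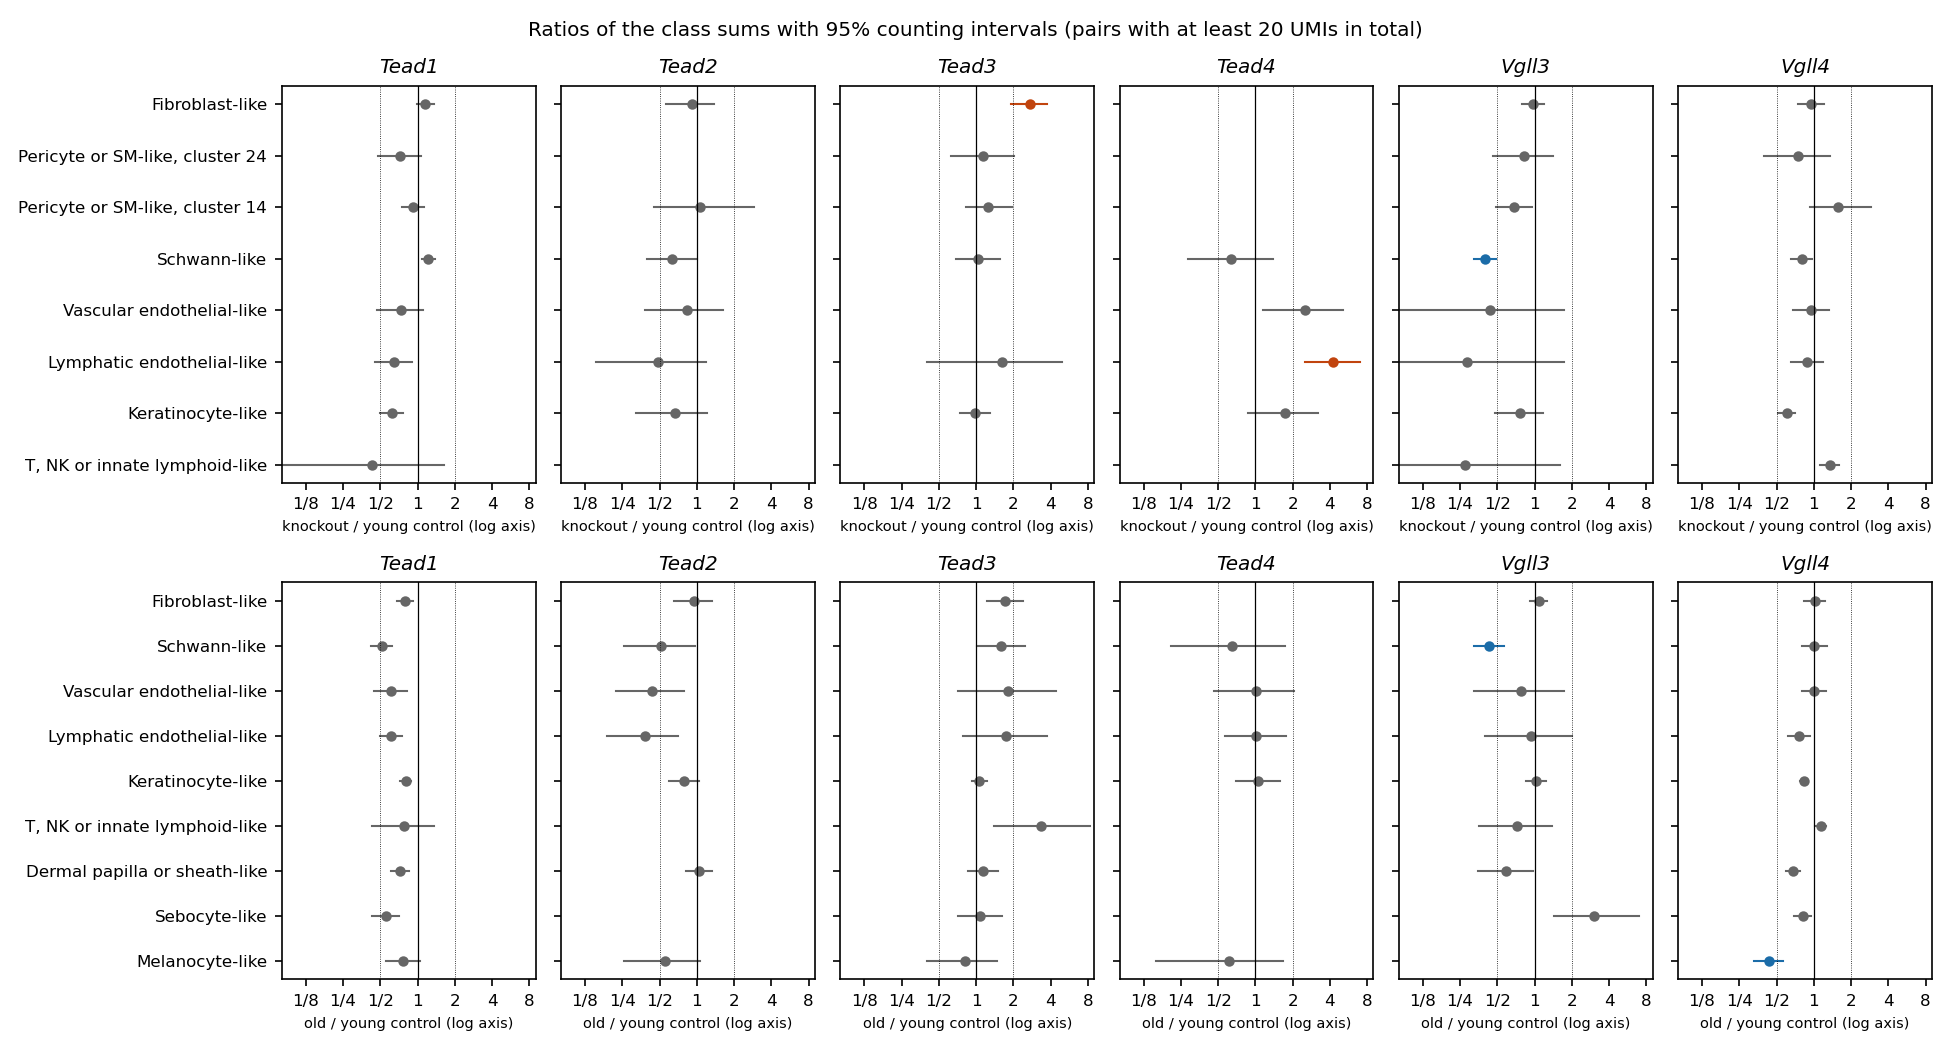
Ratios of class sums for each member, knockout over young control in the upper row and old over young control in the lower row, on a log axis with 95% counting intervals; dotted lines mark 0.5 and 2. Pairs with under 20 UMIs in total, or 0 in a library, are left out. Coloured points are called by the size rule: Tead3 in fibroblast-like and Tead4 in lymphatic endothelial-like cells higher and Vgll3 in Schwann-like cells lower in the knockout, and Vgll3 in Schwann-like and Vgll4 in melanocyte-like cells lower in the old control.

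The 24-month control was then set against the young control in 9 classes. Of 54 pairs of member and class, 27 passed the level filter, 0 were called higher and 2 lower, namely Vgll3 in Schwann-like and Vgll4 in melanocyte-like cells. The share of all genes called in either direction was 3.67% in fibroblast-like, 8.18% in Schwann-like, 1.94% in keratinocyte-like, 9.02% in vascular and 4.82% in lymphatic endothelial-like, 7.7% in lymphoid-like, 5.31% in dermal papilla or sheath-like, 5.29% in sebocyte-like and 4.09% in melanocyte-like cells. This comparison and that of the knockout share the young control library, so a young control level that is off would move both the same way.

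Tead1 had an old to young ratio below 1 in 9 of 9 classes, from 0.514 to 0.799, and the interval lay below 1 in 7 of them. The 2 exceptions were melanocyte-like (0.766, 0.553 to 1.04) and lymphoid-like cells (0.781, 0.430 to 1.36). The lymphoid-like level is read as background, at 10.8 CPM in the old control beside 14.3 CPM of estimated free RNA. Its ratio therefore says nothing of the gene. The lowest ratio was that of Schwann-like cells, 126 against 245 CPM (0.514, 0.421 to 0.625), followed by sebocyte-like cells, 28.8 against 52.2 (0.552, 0.428 to 0.709), vascular endothelial-like cells, 48.0 against 78.8 (0.609, 0.443 to 0.825) and lymphatic endothelial-like cells, 80.7 against 132 (0.613, 0.495 to 0.753). None reached the size rule. The free RNA estimate was 41.6% in old and 7.43% in young sebocyte-like cells, and 49.9% and 21.5% in Schwann-like cells. With it subtracted the Tead1 ratio was 0.239 in sebocyte-like and 0.678 in Schwann-like cells, so the order of the classes rests on that step. Across all genes tested, 26.4% in the Schwann-like class, 29.2% in the sebocyte-like and 47% in the keratinocyte-like class also had an interval below 1, and the median gene had a log2 ratio of -0.11, -0.10 and -0.11 there. The share below 1 was 20% in fibroblast-like, 27.2% in vascular and 29.4% in lymphatic endothelial-like, and 22% in dermal papilla or sheath-like cells. In cluster 4 alone Tead1 had 229 CPM in the young and 103 in the old control, a ratio of 0.449 (0.346 to 0.578) that was called, where 7.54% of genes were called lower. In cluster 21 it had 260 and 227 CPM (0.871, 0.620 to 1.20).

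The minor TEADs differed among themselves. Tead3 was at 22.6 CPM in old and 13.1 in young fibroblast-like cells (1.73, 1.24 to 2.37), at 37.0 and 23.3 in Schwann-like cells (1.59, 1.01 to 2.50) and at 24.7 and 23.3 in keratinocyte-like cells (1.06, 0.925 to 1.21). In fibroblast-like cluster 1 alone the Tead3 ratio was 1.55 (0.971 to 2.39), an interval that spanned 1. The mix of clusters also differed: cluster 17 held 663 of 2560 young and 20 of 388 old cells of the class. Tead4 differed little in the endothelial classes, with a ratio of 1.02 (0.564 to 1.78) in lymphatic endothelial-like cells and levels of 10.7 and 10.6 CPM in vascular endothelial-like ones. Tead2 had a ratio below 1 in 7 of 9 classes, and the interval lay below 1 in 3 of them. These were lymphatic endothelial-like cells at 8.42 against 22.1 CPM (0.382, 0.189 to 0.706), vascular endothelial-like cells at 11.6 against 26.5 (0.435, 0.221 to 0.794) and Schwann-like cells at 12.3 against 23.8 (0.518, 0.257 to 0.975). The lymphatic and Schwann-like classes were below the level filter for Tead2, and in the vascular class the interval did not clear 1.5-fold. Over all genes tested, 29.4% in the lymphatic, 27.2% in the vascular and 26.4% in the Schwann-like class also had an interval below 1. Vascular cluster 16 held 562 of 635 young and 108 of 347 old cells of its class. Within it the Tead2 ratio was 0.600 (0.189 to 1.47), an interval that spanned 1. In dermal papilla or sheath-like cells, where it is highest, Tead2 had a ratio of 1.04 (0.818 to 1.33).

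Vgll3 in Schwann-like cells had an old to young ratio of 0.429 (0.324 to 0.562), where 5.06% of genes were called lower. The call was lost with doublets kept (0.514) and with free RNA subtracted (0.592). The ratio was 0.319 (0.230 to 0.435) in cluster 4 and 0.670 (0.354 to 1.17) in cluster 21. Fibroblast-like cells showed no such difference, at 90.1 and 83.4 CPM (1.08, 0.924 to 1.26). Vgll4 in melanocyte-like cells stood at 202 CPM in the young control (831 UMIs in 259 cells) and 87.1 in the old control (59 UMIs in 122 cells), a ratio of 0.432 (0.326 to 0.563), where 2.6% of genes were called lower. With cells thinned to 1500 UMIs the ratio was 0.722 and not called. Keratinocyte markers summed to 12282 CPM in these cells of the young control and 8815 in those of the old control, and the 6 melanocyte markers, all detected, to 4439 and 6702. Vgll4 was also lower in dermal papilla or sheath-like cells, at 99.9 against 147 CPM (0.681, 0.598 to 0.775), and close to level in Schwann-like (1.01, 0.796 to 1.28), fibroblast-like (1.01, 0.833 to 1.22) and vascular endothelial-like cells (1.01, 0.803 to 1.26).

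The rest of the pathway was read from fixed lists. Of 26 genes for Hippo kinases, adaptors and upstream regulators, 19 passed the level filter in fibroblast-like cells. In the knockout 1 of them was called lower and 0 higher: Amotl2, an angiomotin that binds YAP and is itself a target, fell from 198 to 67.1 CPM (ratio 0.339). The list's median log2 ratio was 0.11, against 0.17 for all genes. Of 22 target genes of YAP, TAZ and TEAD, 15 were tested there, 3 were lower and 1 higher, where 3.98% of all genes were called lower and 5.04% higher. Amotl2, Ajuba, Lats2, Ptpn14 and Wwc1 are on both lists. A call on any of them, such as that of Amotl2, counts in both, so the lists are not separate. Ctgf, the matricellular target most often used as a readout of YAP and TAZ, fell from 148 to 51.3 CPM (0.347), Igfbp3 from 315 to 74.7 (0.237), and Myof rose from 50.7 to 105 (2.07). The median log2 ratio of the target list was 0.14. In lymphatic endothelial-like cells 5 of 11 tested targets were lower and 0 higher, in Schwann-like cells 2 of 16 lower and 0 higher, and in keratinocyte-like cells 2 of 14 lower and 1 higher. Of all genes, 3.41% were called lower in the lymphatic, 5.7% in the Schwann-like and 5.54% in the keratinocyte-like class, and 2.48% higher in the last. The Hippo list had 5 of 19 genes lower in keratinocyte-like, 2 of 21 in Schwann-like and 2 of 19 in lymphatic endothelial-like cells, with 0 higher in each, beside the same shares of all genes.

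Of 8 AP-1 genes, 7 were tested in fibroblast-like cells and 0 were called in either comparison. In the old control, 2 of 15 target genes were lower and 0 higher in fibroblast-like cells, where 1.88% of all genes were called lower: F3, the gene of tissue factor, at 16.2 against 57.1 CPM (0.283) and Igfbp3 at 52.2 against 315 (0.165). The Hippo list had 0 calls among its 19 tested genes there, with a median log2 ratio of -0.28 against 0.04 for all genes.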

How the data were processed

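Matrices of raw UMI counts per gene and barcode were deposited for the 3 libraries. Cell Ranger 3.1.0, Seurat 3.1.5 and the build mm10 are named per the submitters' processing notes, and the kit is the 10x Chromium 3' v3.1 per the labels' protocols. How barcodes were selected, and whether strand was used, was not given in the sources used here. Barcodes entered the analysis from 500 genes and 1000 UMIs upward, with mitochondrial UMIs of no more than 15%. Scrublet's automatic threshold marked 3.62%, 0% and 0.0166% of the young control, knockout and old control and so had not worked in the last 2; instead, each library lost the top 8% of its doublet scores. Cells were scaled to 10000, log-transformed, reduced to 2000 variable genes and 30 components, and clustered on 20 neighbours (scanpy 1.11.5, leidenalg 0.10.2, resolution 1) without batch correction.

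Of 38 clusters, 24 were named from fixed markers, with at least 3 standing out and a log2 margin of 0.5. These naming thresholds and the doublet fallback were chosen once the cluster tables had been seen. Different rebuilt names may change a level. Raw counts were summed per class and library with at least 50 cells. Levels carry exact Poisson intervals, ratios exact intervals from the binomial split of 2 counts, and shares exact Clopper-Pearson intervals. Medians of log2 ratios were taken with 0.5 UMIs added. Free RNA was estimated from markers of other classes, as the median of their CPM in a class relative to all cells of the library. It is given as that percentage or as its expected CPM. The percentage is a share of UMIs only if free RNA has the make-up of the whole library. Other-class markers that a class itself expresses raise it. The rule for calls was run on simulated Poisson counts from the fibroblast-like profile, with a level filter over 2 libraries. Those counts follow the model that gives the intervals and hold no spread between cells or animals. The run therefore does not test calls made from 1 library per group. The genes named are the members with Yap1 and Wwtr1, list genes past the size rule (at most 8 per comparison, taken in fibroblast-like cells), and the 3 genes most like each member. Some of these and of the leading genes of clusters are not reported here. Leading genes of clusters were named after their values were seen, and so were the single clusters. The members and lists were chosen with earlier results of these data known. Promoter sequences are RefSeq's (GRCm38.p6), and 6 of the 8 genes matched.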

Additional observations from a re-analysis of the deposited data

How the results depend on the processing

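Alternatives were a stricter cell filter, doublets kept, looser naming, each library clustered alone, a Leiden resolution of 2, thinned cells, free RNA subtracted, TMM factors (edgeR 4.0.16), no filter on low levels and clusters weighted by the young control's mix. Single clusters were added after seeing the data. No paired analysis was possible because each group has 1 library. Tead4 in lymphatic endothelial-like cells had ratios of 4.03 to 4.50 in the 6 alternatives that could be run, but passes the level filter only through its knockout level, and Vgll3 in Schwann-like knockout cells was called in 10 of 10, with 0.326 to 0.455. Tead3 in fibroblast-like knockout cells was called in 8 of 10: thinned cells gave 2.46 and the young control's cluster mix 1.71, and cluster 1 alone gave 0.978 with an interval that spanned 1. Vgll3 in Schwann-like cells of the old control was called in 8 of 10: with doublets kept it was 0.514 and with free RNA subtracted 0.592. Vgll4 in melanocyte-like cells of the old control was called in 8 of 9, with 0.722 in thinned cells. The number of pairs higher in the knockout was 0 with thinned cells (7 cell sets) and 0 with the young control's cluster mix (5 cell sets), and the number lower was 3 with that mix, where Tead1 (0.419) and Vgll4 (0.466) in keratinocyte-like cells joined. In the old control 1 pair was higher without the level filter, Tead2 in sebocyte-like cells, which rests on 1 young control UMI, and 1 was lower with doublets kept. Of 1283 ratios under an alternative, 1125 stayed within the counting interval of the reported value, and of 408 levels 355 did. Dropping the level filter cannot move a ratio or lose a call, so it is no check on either. It gave 135 of these ratios and is among the 10 settings counted above. Thinned cells moved 45 ratios and left 79, and 1 ratio was reversed, in cluster 1 alone. Alternatives that left a class with under 50 cells, or a ratio against 0 UMIs, gave no value. TMM moved the centre of fibroblast-like knockout cells by -0.17 on the log2 scale, of keratinocyte-like ones by 0.13 and of cluster 24 by 0.13, and changed no call among the members. With 1 library per group, the spread between animals is unknown, and Tead2 and Tead4 rest on few UMIs in most classes.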
